A study of Physcomitrium patens with 6 samples.

Results

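In the moss *Physcomitrium patens*, 96 of 31967 annotated genes had no read in any of 3 wild type libraries and were read in *Ppddm1*, a knockout of the chromatin remodeler PpDDM1. A gene was taken when it had 0 counts in the 3 wild type libraries, a count in at least 2 of the 3 *Ppddm1* libraries and at least 6 counts over them. The genes were thus chosen by their raw counts in these 6 libraries, and the difference between the genotypes is given as a description, with no test. The same rule with the genotypes swapped took 25 genes that were silent in *Ppddm1* and read in wild type. Genes with no wild type count numbered 10039, and the 96 made up 0.956% of them.

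DDM1 is a remodeler of the Snf2 family that gives DNA methylases access to nucleosomal DNA. In flowering plants its loss strips methylation from heterochromatin and activates transposable elements (TEs), and genes that are normally silent can be read with them. A gene without reads in one tissue may also be a gene of another tissue, an annotation that makes no transcript, or a gene whose transcripts are too rare for the depth.

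The libraries were made from the polyA RNA of protonema, the thread-like juvenile stage of the moss, harvested after 7 days from strain Grandsen grown at 25 °C with 16 h of light and 8 h of dark. In *Ppddm1* a Zeocin resistance cassette replaced the coding region of PpDDM1, and the study describes 1 knockout plant found after selection, while wild type carries no cassette. By the labels, batch 1 holds replicates 1 and 2 of both genotypes, and batch 2 holds replicate 3. The sources do not say whether the replicates came from separate cultures, so p-values refer to the spread of these libraries, possibly only technical. In whole tissue fewer cells that use a gene and less RNA per cell cannot be told apart.

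Depth bears on every value below. Total counts ran from 2784259 to 6079718 in wild type and from 3767473 to 10536543 in *Ppddm1*. Summed over the 3 libraries, wild type held 71.4% of the *Ppddm1* counts. *Ppddm1* replicate 3 alone held 57.2% of the counts of its genotype. These totals differ from the library sizes listed by the study, and that of *Ppddm1* replicate 3 is the larger of its 2 values. The cause was not found. Replicate 1 of each genotype differed most from the other libraries of its genotype. PpDDM1 itself, Pp3c17_19520, had 15.1, 18.3 and 26.5 CPM (counts scaled to the library total) in wild type and 1.06, 0.974 and 1.04 CPM in *Ppddm1*, as the labels would have it (log2 fold change -4.31, adjusted p = 1.93e-05 by edgeR).

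Most of the 96 genes were read at the limit of what the libraries could show. Their counts summed over the *Ppddm1* libraries ran from 6 to 160 with a median of 8, and 62 genes had 6 to 9 counts. Another 24 had 10 to 19 counts and 10 had 20 or more. The mean level over the *Ppddm1* libraries, each weighted equally, ran from 0.239 to 8.88 CPM with a median of 0.442 CPM. Only 10 of the 96 genes were above 1 CPM. Together the 96 genes had 49.1, 79.2 and 67.5 CPM in *Ppddm1* replicates 1, 2 and 3 (65.3 ± 15.2 CPM, SD, n = 3). The sum was lowest in replicate 1 and highest in replicate 2. A few genes carried much of it, since the first 10 by mean CPM held 39.1% of the 1221 counts, the first 20 held 50.8%, and the remaining 86 genes had a median of 8 counts each.

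The most read of these genes, Pp3c14_5200 on chromosome 14, had 20, 54 and 86 counts in *Ppddm1* replicates 1, 2 and 3 and none in the wild type libraries. Its levels in *Ppddm1* were 5.31, 13.2 and 8.16 CPM (8.88 ± 3.97 CPM, SD, n = 3). All 3 replicates were far above the level of 1 read, and replicate 2 was 2.48 times replicate 1. Pooled over the genotype, its level was 8.69 CPM (exact Poisson 95% interval 7.40 to 10.1). Against 3 counts over the wild type group, the floor that a count of 0 allows (0.228 CPM), it was at least 38.1-fold higher, with the *Ppddm1* level taken as measured here and below. Intervals and floors cover counting error only. Next came Pp3c19_9830 on chromosome 19, with 9, 12 and 23 counts, or 2.39, 2.92 and 2.18 CPM (2.50 ± 0.382 CPM, SD, n = 3), at least 10.5-fold above that floor. The files pair these identifiers with no gene name, and none of them is in the RefSeq table used here, so the roles of the genes are unknown and the others are described by rank and chromosome.

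**Figure D1:**
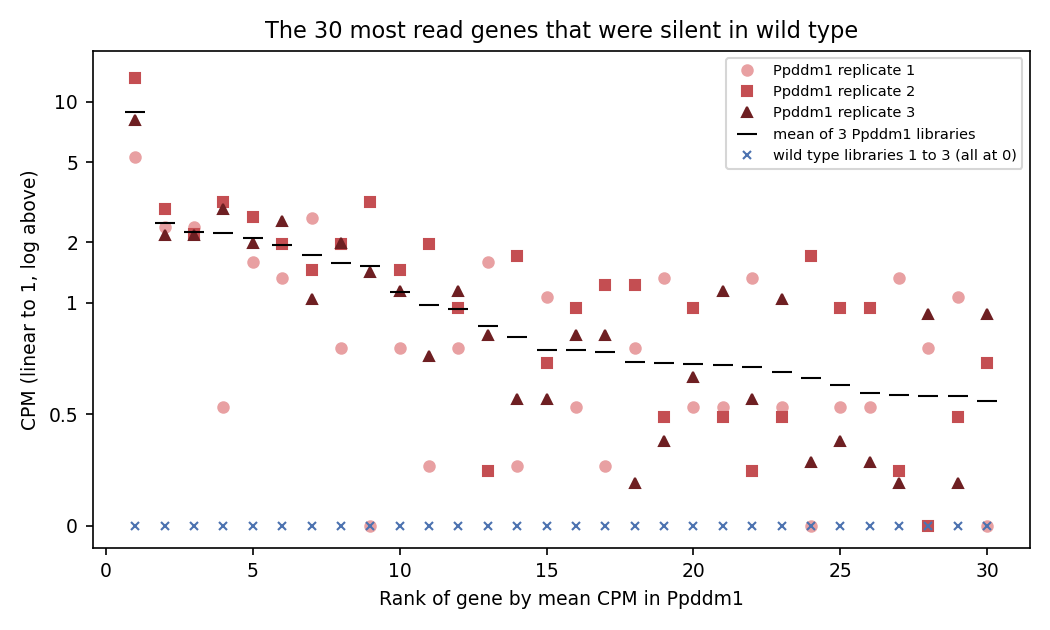
Level in CPM (linear up to 1, logarithmic above) of the 30 genes with the highest mean in *Ppddm1*, by rank, with the 3 *Ppddm1* libraries as points, their mean as a bar and the 3 wild type libraries at 0. The first gene stands at 8.88 CPM, the second at 2.50 CPM, and from rank 11 on every mean is under 1 CPM.

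The genes ranked 3 to 10 lay on 8 different chromosomes and had 21 to 46 counts in sum, with means between 1.13 and 2.25 CPM. They were at least 4.995 to 10.9-fold higher than the wild type floor. The third gene, on chromosome 7, varied least among the first 10, with 9, 9 and 23 counts (2.39, 2.19 and 2.18 CPM). The fourth, on chromosome 24, was read mainly in replicates 2 and 3, with 2, 13 and 31 counts (0.531, 3.17 and 2.94 CPM). The fifth, on chromosome 4, had 6, 11 and 21 counts, and the sixth, on chromosome 21, had 5, 8 and 27. The seventh gene, on chromosome 10, was like the third highest in replicate 1, with 10, 6 and 11 counts (2.65, 1.46 and 1.04 CPM). The eighth, on chromosome 8, had 3, 8 and 21 counts. The ninth, on chromosome 22, had no count in replicate 1 and 13 and 15 in replicates 2 and 3, and it was the only one of the first 10 that lacked reads in a *Ppddm1* library. The tenth, on chromosome 6, had 3, 6 and 12 counts.

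The 86 genes from rank 11 on had 6 to 19 counts and means from 0.239 to 0.991 CPM. Their pooled levels, as measured, were 1.43 to 4.52 times the floor of 3 wild type counts, with a median of 1.90. Of all 96 genes, 42 reached 2 times the floor, 12 reached 4 times and 3 reached 10 times. A gene with 6 *Ppddm1* counts had a pooled level of 0.326 CPM, at which 4.28 counts would be due in the wild type libraries. For 34 of the 96 genes the lower end of the 95% interval of the pooled level was above the wild type floor, and for the others counting error reached down to it. These 34 are the genes with 10 or more counts. The interval rests on the counts that chose the genes, so it restates them and is no test of the genotypes.

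The genes were read most often in the deepest *Ppddm1* library. All 96 were read in replicate 3, 82 in replicate 2 and 65 in replicate 1. The replicates took 58.2%, 26.6% and 15.2% of the counts, beside 57.2%, 22.3% and 20.5% of the depth. Replicate 1 therefore held a smaller part of these reads than of the depth, and replicate 2 a larger one. In CPM, 44 genes were highest in replicate 2, 32 in replicate 3 and 20 in replicate 1. Reads in all 3 libraries were found for 51 genes, whose highest library was 1.09 to 7.34 times their lowest (median 2.50). For these 51 the genotypes did not overlap, by the rule itself, and among the 19626 genes tested 12.3% had every *Ppddm1* library above every wild type library.

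The thresholds of the rule cut through a dense range of counts. Just inside, 25 genes had 6 counts and 14 had 7. Just outside, 40 genes without wild type reads had 5 counts in at least 2 *Ppddm1* libraries, and 2 genes had 6 or more counts in a single *Ppddm1* library, the higher of them 7. With 1 wild type count and otherwise the same values there were 114 genes, more than the 96, with a median of 8 and a maximum of 73 *Ppddm1* counts. In all, 1311 genes without wild type reads had a *Ppddm1* count, 911 of them in 1 library only.

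At equal depth, nearly as many genes met the rule in one direction as in the other. Each library was thinned at random to 2784259 counts, the total of the smallest, and the rule was applied again, 20 times. A median of 41.5 genes (37 to 54) were then silent in wild type and read in *Ppddm1*, and 39 genes (30 to 51) were silent in *Ppddm1* and read in wild type. The former outnumbered the latter in 13 of 20 thinnings. Of the 96 genes, a median of 25.5 still met the rule, and 17 other genes met it that had wild type counts at full depth. The asymmetry of 96 to 25 thus stood at 41.5 to 39 when the depths were the same. Where only the *Ppddm1* libraries were thinned, so that their sum matched that of wild type, 54.5 genes (49 to 61) stood against 41 (36 to 49). Both of these directions used the same thinned libraries, whose depths remained uneven within each genotype.

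**Figure D2:**
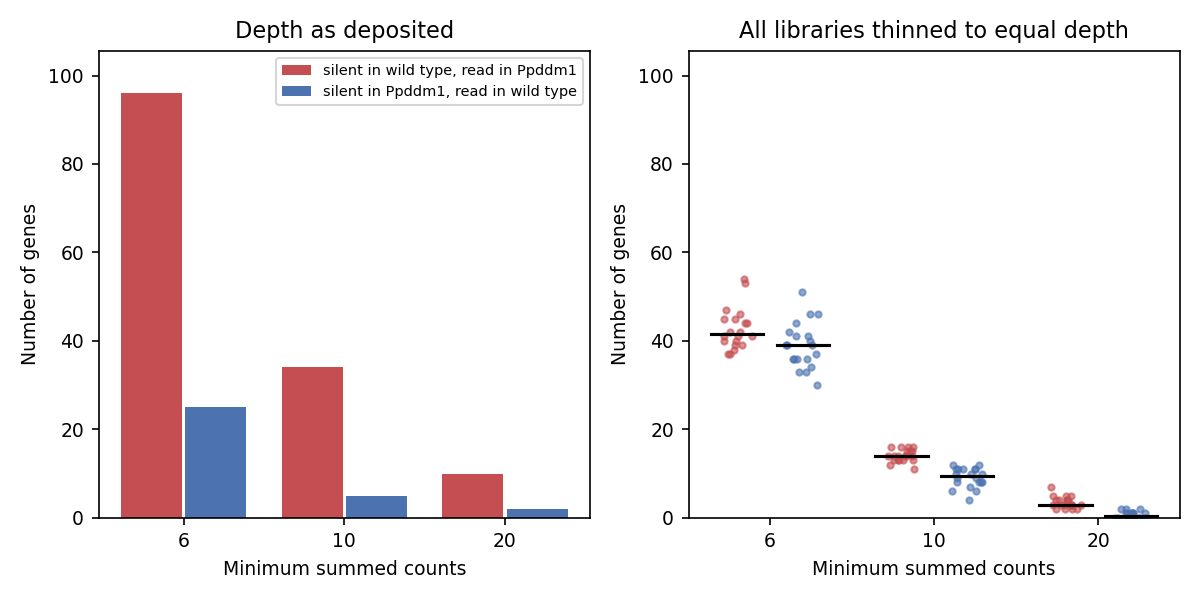
Number of genes silent in wild type and read in *Ppddm1* (red) and of genes silent in *Ppddm1* and read in wild type (blue), for a minimum of 6, 10 or 20 summed counts. At the deposited depth (left, bars) they number 96 and 25, 34 and 5, and 10 and 2, and after thinning to equal depth (right, 20 thinnings as points, median as a line) the medians are 41.5 and 39, 14 and 9.5, and 3 and 0.5.

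Thinning adds no wild type count, so whether one of the 96 genes still met the rule was set by its *Ppddm1* counts, which had chosen it. All 10 genes with 20 or more counts met the rule in every thinning, and these are the 10 genes of the highest mean CPM. Genes with 10 to 19 counts met it in 0 to 19 thinnings (median 9), and the 62 genes with 6 to 9 counts in 0 to 9 (median 0). In all, 38 of the 96 genes met it in no thinning. When 10 summed counts were required at equal depth, 14 genes (11 to 16) stood against 9.5 (4 to 12) in the swapped direction, with more genes read in *Ppddm1* in 19 of 20 thinnings. At 20 counts there were 3 (2 to 7) against 0.5 (0 to 2), with more in all 20. These stricter minimums were chosen after seeing the data, and the thinnings draw on the same 6 libraries, so their order is no test.

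Leaving out single libraries moved both numbers, in directions that the rule itself sets. Without a wild type library the number meeting the rule can only rise or stay, and its swap only fall or stay. Without a *Ppddm1* library the reverse holds, so only the size of a shift is informative. Without *Ppddm1* replicate 3, the deepest library, 24 genes met the rule and 105 genes its swap. Without *Ppddm1* replicate 2 the numbers were 51 and 43. Without wild type replicate 2 they were 187 and 10, and without wild type replicate 3, the deepest of its genotype, 193 and 4. The shifts were smaller for replicate 1, with 139 and 17 without that of wild type and 72 and 32 without that of *Ppddm1*.

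At one depth, the number of genes with reads did not differ detectably between the genotypes. After thinning, 19840, 20105 and 19820 genes had a count in wild type replicates 1, 2 and 3, and 19759, 20155 and 20045 in those of *Ppddm1*. The means were 19922 ± 159 (SD, n = 3) and 19986 ± 204 genes (SD, n = 3), and the ranges overlapped (two-sided exact permutation test, p = 0.9, where 0.1 is the smallest that 3 libraries against 3 allow). Genes read in a single library, which the rule leaves out, numbered 222, 292 and 210 in wild type and 188, 284 and 260 in *Ppddm1*. The means were 241 ± 44.3 (SD, n = 3) and 244 ± 49.8 (SD, n = 3), with p = 1 in the same exact permutation test. Both adjusted p-values were 1 over these 2 comparisons. The sign of either difference turned when at least 2 counts were asked for, and neither result shows that the genotypes are alike.

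**Figure D3:**
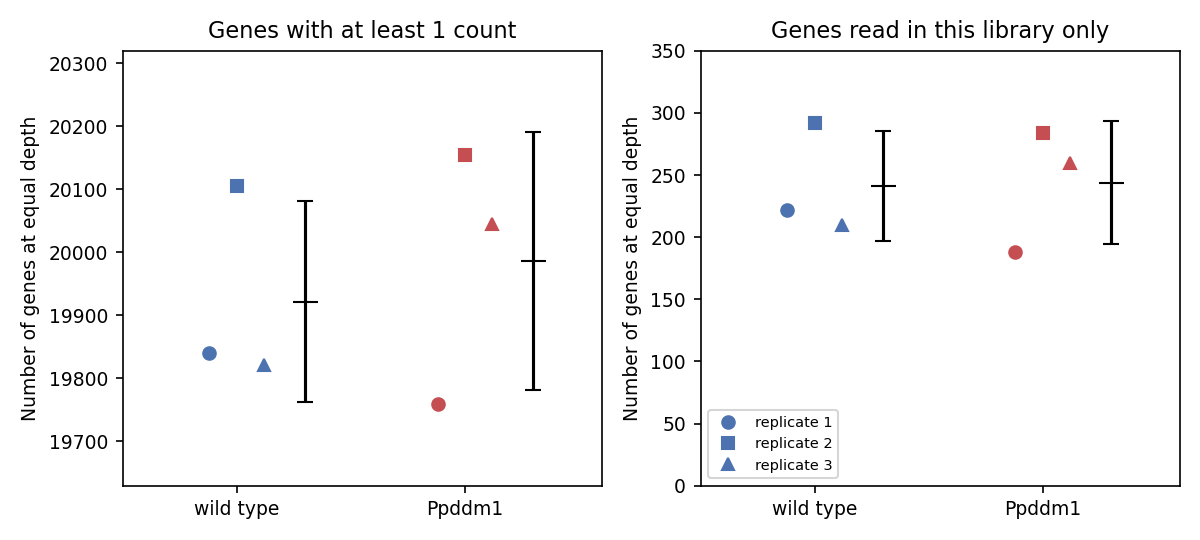
Number of genes with at least 1 count (left, axis not from 0) and of genes read in that library only (right), per library after thinning to 2784259 counts, as means of 20 thinnings. Points are libraries and black bars are the mean and SD of 3, and the 2 genotypes overlap in both panels, with means of 19922 and 19986 genes on the left and 241 and 244 on the right.

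Genes chosen in batch 1 were then followed into batch 2, whose libraries took no part in that choice. In batch 1 alone, 49 genes had no wild type count and at least 6 *Ppddm1* counts with reads in both libraries. All 49 were read in *Ppddm1* replicate 3 (100%). Wild type replicate 3, which is shallower, had reads of 25 of them (51.0%). About as many of these genes, silent in the batch 1 wild type libraries, were thus read in the next one as were not. Their summed level was 51.6 CPM in *Ppddm1* replicate 3 and 11.7 CPM in wild type replicate 3. In CPM, 42 of the 49 were higher in *Ppddm1* and 7 in wild type. Outside the 10 genes with the highest batch 1 level, the sums were 24.5 and 10.7 CPM. Only 24 of these 49 genes are among the 96. Batch 2 has 1 library of each genotype, so this comparison has no replicates and no test.

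In the swapped direction, 28 genes were chosen in batch 1, and wild type replicate 3 had reads of 25 of them (89.3%). *Ppddm1* replicate 3 had reads of 24 (85.7%). Their summed level was 25.2 CPM in wild type replicate 3 and 9.30 CPM in *Ppddm1* replicate 3, with 21 of the 28 higher in wild type. In both directions, then, most genes kept in batch 2 the order of batch 1, and many that were silent in batch 1 were read in the genotype where they had been silent.

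**Figure D4:**
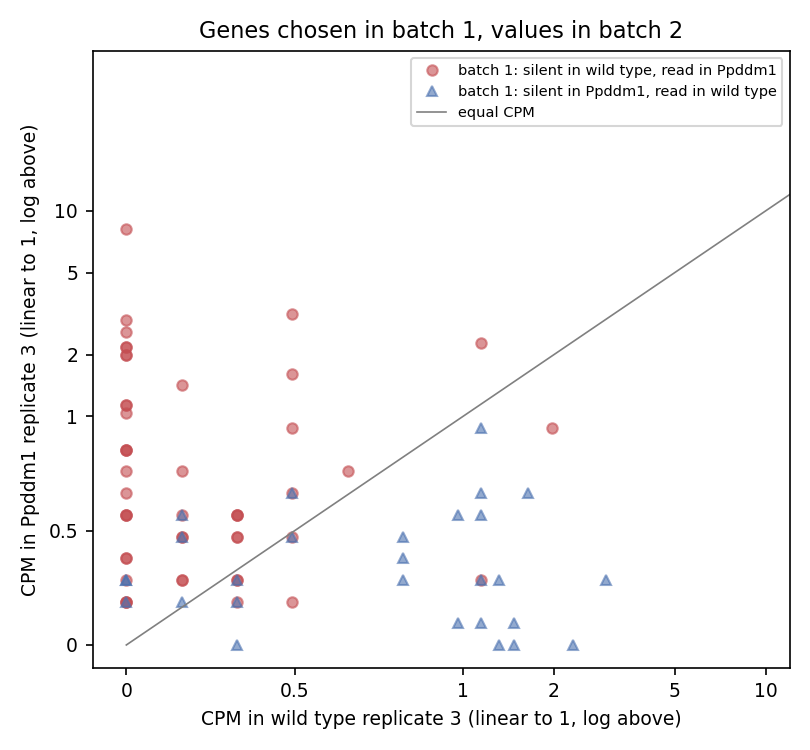
CPM in *Ppddm1* replicate 3 against CPM in wild type replicate 3 (linear up to 1, logarithmic above) for the 49 genes that batch 1 showed as silent in wild type and read in *Ppddm1* (red circles) and the 28 genes of the swapped direction (blue triangles), with the line of equal CPM. Of the red circles 42 of 49 lie above the line and 24 stand at 0 in wild type, and of the blue triangles 21 of 28 lie below it.

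In the fit across all genes and TEs, 34 of the 96 genes had the 10 counts needed for testing and 10 of them were called higher in *Ppddm1* (edgeR's quasi-likelihood test, adjusted p under 0.05 and at least 2-fold). Of all 19626 genes tested, 107, or 0.545%, were called higher. The rule used this contrast and a gene without wild type counts could be tested only through its *Ppddm1* counts, so nothing is read from the 10. They comprise 9 of the first 10 genes and the gene ranked 12. The ninth gene, with no count in replicate 1, was not called. With batch 1 alone 9 were tested and 1 was called, and 5 were called when wild type replicate 2, wild type replicate 3 or *Ppddm1* replicate 3 was left out.

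The genes were spread over the genome. They lay on 25 of the 27 chromosomes. Chromosome 24 had 7 of its 943 genes, chromosome 22 had 6 of 964 and chromosome 17, which carries PpDDM1, had 7 of 1116, while chromosomes 12 and 16 had none of 1138 and 1234. Chromosome 1 had the most, 11 of 1996 genes. None of the 96 was on an unplaced scaffold. As a random sample they would allow a share of up to 3.13%, but they are all the genes that the rule took. Scaffolds hold 2.06% of all genes, 5.96% of the genes without wild type reads and 0.214% of the genes with at least 10 counts. Of the 598 scaffold genes without wild type reads, 594 had no count in any library, so hardly any could have met the rule. Identifiers are mostly numbered in steps of 10 along a chromosome, and 19 of the 96 (19.8%) had a number in between. This was so for 17.9% of all genes without wild type reads, for 9.56% of all genes and for 3.70% of genes with at least 10 counts. By the rule the 96 are part of the genes without wild type reads, so a share near theirs is no separate result. None of the first 10 had such a number. Of the 10039 genes without wild type reads, 8728 had no count in any library. Such a number was held by 1801 of the 10039 and by 1466 of the 8728. Among the genes with a *Ppddm1* count, the closest comparison for the 96, the share was therefore above 17.9%.

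Side by side in the order of the identifier numbers stood 3 pairs of these genes. Positions on the chromosomes were not available, so which genes are neighbours is inferred from that order here and below. On chromosome 22 the ninth gene was next to the gene ranked 24, and both had no count in *Ppddm1* replicate 1, with 13 and 15 counts for the former and 7 and 3 for the latter in replicates 2 and 3. On chromosome 10 the gene ranked 17 had 1, 5 and 9 counts in replicates 1, 2 and 3 and its neighbour had 0, 3 and 3. On chromosome 1 the pair had 4, 0 and 4 and 1, 2 and 4 counts. In the chromosome 22 and chromosome 10 pairs both genes were low or absent in replicate 1, while those of the chromosome 1 pair were lowest in different replicates. Low counts in replicate 1 were common, since 31 of all 96 genes had none there and it held 15.2% of their counts. Whether genes side by side shared this more often than other genes was not tested.

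By edgeR, none of the tested genes next to the 96 was called. The nearest gene on each side in the order of identifiers that was not one of the 96 gave 186 neighbours. Of these, 70 (37.6%) had no wild type read, beside 31.4% of all genes and 39.97% of the genes that lay next to other genes without wild type reads. The median pooled wild type level was 0.457 CPM for the 186, 0.533 CPM for the genes next to other silent genes and 3.43 CPM for all genes. Of the 101 neighbours that could be tested, edgeR called none in either direction. As independent draws they would allow a share of up to 2.97%, but they share the same 6 libraries and may not be independent. Few calls would be due among them at the shares of all tested genes, so no shortage of calls is read from this. Among all tested genes 0.545% were called higher and 2.46% lower. Among the 8403 tested genes next to other genes without wild type reads the shares were 0.774% and 2.87%. At an unadjusted edgeR p under 0.05 there were 13 of the 101 neighbours (12.9%, beside 17.7% of all genes). DESeq2 called 0 of the 101 and limma-voom 1, beside 2.78% and 2.95% of all tested genes in either direction. The median log2 fold change of the neighbours was 0.06, with quartiles at -0.21 and 0.30, and that of all tested genes was 0.01, with quartiles at -0.22 and 0.20. For the tested genes next to other silent genes the median was 0.01, with quartiles at -0.25 and 0.22. These differences were not tested. The 10 tested neighbours of the first 10 genes had a median of -0.22, with quartiles at -0.42 and -0.09, and 2 of these 10 were above 0. Among the nearest tested genes, taken past silent ones, 1 of 184 was called higher and 6 lower, shares of 0.543% and 3.26%.

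**Figure D5:**
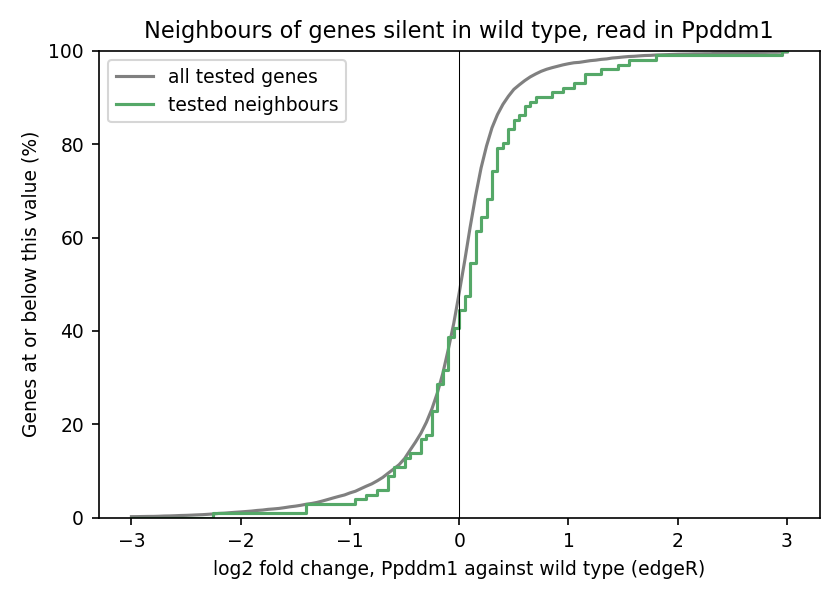
Share of genes at or below each log2 fold change (*Ppddm1* against wild type, edgeR) for the 101 tested neighbours of the 96 genes (green) and for all 19626 tested genes (grey). The medians are 0.06 and 0.01, and on the upper side the green curve lies below the grey one, with 64.4% against 74.9% of genes at or below a log2 fold change of 0.2 and 92.1% against 97.2% at or below 1. The grey genes are not matched to the neighbours in level, and the difference was not tested. Genes next to other silent genes, not drawn, have a median of 0.01 and quartiles at -0.25 and 0.22.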

How the data were processed

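RNA-seq libraries of protonema, 3 of wild type and 3 of *Ppddm1*, were grouped by their labels. Per the labels and the study's methods, the authors trimmed single-end reads with Trim Galore 0.6.0 and cutadapt 1.15, aligned them with STAR 2.7.0f to genome v3.3, gave reads with several matches to 1 place at random, and deposited raw counts per gene and TE. The counting program and strand setting are not stated in those sources, so counts of near-identical, overlapping or antisense genes are uncertain. All 273318 rows (31967 genes, 241351 TEs) entered the library totals. Thinning drew counts without replacement (numpy 2.4.6). Features with at least 10 counts were fitted in edgeR 4.0.16 (R 4.3.3; TMM, robust quasi-likelihood, genotype only), with Benjamini-Hochberg adjustment over genes and TEs. DESeq2 1.42.0 and limma-voom (limma 3.58.1, the tool named in the study) were alternatives. The script was tested on simulated data. Same-numbered libraries leaned weakly towards pairing in replicates 1 and 2 and not in replicate 3. The correlations of deviations were 0.156, 0.121 and -0.0194, beside -0.173 to 0.0876 for differently numbered libraries. The genes and lists were chosen with earlier results of these data known. PpDDM1 and the first 2 genes by mean CPM are printed by identifier and those ranked 3 to 10 by chromosome. No set of moss cell type markers was used, and the gene identifiers matched 0 entries of the RefSeq table (assembly ASM5946719v1). Figures were drawn with matplotlib 3.10.9.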

Additional observations from a re-analysis of the deposited data

How the results depend on the processing

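The number of genes moved with depth, with the thresholds and with the libraries used. Against 96 genes and 25 in the swapped direction, the numbers were 273 and 103 with at least 3 counts, 34 and 5 with 10, 10 and 2 with 20, 51 and 14 with reads in all 3 libraries, 210 and 55 with 1 count allowed in the silent genotype, and 49 and 28 in batch 1 alone. At equal depth the medians were 41.5 and 39, with 168.5 and 161 at 3 counts, 14 and 9.5 at 10, 8 and 3 at 15, 3 and 0.5 at 20, and 33 and 28 with reads in all 3 libraries. They were 54.5 and 41 at matched summed depth. The alternatives at 20 counts, at matched summed depth and those that join thinning with another threshold were chosen after seeing the data. Leaving out 1 library gave 24 to 193 genes, and 4 to 105 swapped, with the direction of each shift set by the rule. Genes called higher were 107, but 45 with 10 counts needed in every library, 23 in batch 1 alone and 53 to 153 with 1 library left out. Genes called lower were 483, but 228 in batch 1 alone and 340 to 520 with 1 library left out. Of the 96 genes, 10 were called, but 16 with no filter beyond 1 count, 1 with filterByExpr, which tested 1, 1 in batch 1 alone and 5 to 12 with 1 library left out, while none could be tested with 10 counts in every library. With the replicate number as a block, 12 of them were called, and 147 genes were higher and 520 lower. PpDDM1 was called under all 18 alternatives that tested it (-4.45 to -4.03 with 1 library left out).

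The difference in genes with a read per library, 64.4, became -67.3 for at least 2 counts (exact permutation p = 0.8), -77.6 for at least 5 (p = 0.7) and -20.1 to 178 with 1 library left out. That in genes read in 1 library only, 2.92, became -17.4 for at least 2 counts (exact permutation p = 0.3) and -17.1 to 30.8 with 1 library left out. In batch 2, genes chosen with at least 3 counts were read in 90.7% of cases in *Ppddm1*. In the swapped direction, those chosen with at least 10 or 3 counts were read in 100% or 66.4% in wild type, and 40.0% with 10 counts in *Ppddm1*. Calls among the 101 tested neighbours were 0 at first. They were 7 of 184 with the nearest tested gene on each side, 13 of 368 with 2 such genes and 4 of 200 with 2 listed genes. The shares called higher and lower were 0.543% and 3.26%, 0.815% and 2.72%, and 0.5% and 1.5%. Among all tested genes they were 0.545% and 2.46%. The causes of these changes were not tested, beyond the fewer genes or samples that a setting leaves. A count of 0 over wild type allows 0.228 CPM.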
